A study of Arabidopsis thaliana with 3 samples.

Results

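Arabidopsis thaliana seed kept wet for 3 days in the presence of trichostatin A (TSA) was compared with dry, unimbibed seed of the same ecotype, Columbia. TSA is an inhibitor of histone deacetylases, the enzymes that remove acetyl groups from histones. The comparison rests on 2 of the 3 samples of the series, the TSA-treated and the unimbibed one, and all 22746 probe sets other than the array's controls entered it. Seed imbibed for 3 days without TSA is the third sample, and its ratio over the same unimbibed array is given beside the TSA ratio throughout. Both imbibed samples had been surface sterilised and laid on nylon membranes over Murashige and Skoog agar, with a 16 h day. The labels disagree on the unit of the TSA dose, and 10 µM, the value attached to the treated sample itself, is used here. The unimbibed sample carries no label of imbibition time or treatment. Total RNA from each state was labelled with biotin and hybridised to 1 Affymetrix ATH1 array, a chip that measures each transcript with a set of short probes. With 1 array per state there was no replicate, no test was possible and no p-value is given, so each ratio describes these arrays. Whether seed was pooled, and whether the states came from 1 seed lot, is not given in the sources used here.

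A dry Arabidopsis seed holds the transcripts left from late maturation: messages for late embryogenesis abundant (LEA) proteins and dehydrins, which protect cells against drying, for storage proteins, and for oleosins, which coat oil bodies. On imbibition in light these messages are normally lost, reserves are used up, the seedling makes ribosomes, its cells expand, and plastids turn green. Greening needs genes of the nucleus, such as those of the light-harvesting complexes, and genes of the plastid's own genome. Histone acetylation generally goes with active transcription, and deacetylases are known to act in shutting off the embryo's genes in seedlings.

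The signals are MAS5 values on an arbitrary linear scale, brought here to a common trimmed mean. Values below a signal of 10.7 were set to that floor, and a ratio with 1 side at the floor is written "at least". "Rose" and "fell" are used only for a change of 2-fold or more over unimbibed seed, with unimbibed seed as the denominator of every ratio unless another is named. The 2% trimmed mean before scaling was 44.4 in TSA-treated seed and 43.4 in untreated imbibed seed, against 26.5 in unimbibed seed. Equal scaling hides any change in total message per seed. Signals above the floor made up 61.2% of probe sets in TSA-treated, 61.7% in untreated and 57.0% in unimbibed seed. The hybridisation controls had ratios with an SD of 0.13 on the log2 scale between TSA-treated and unimbibed seed (18 controls), and the ratios of several probe sets for 1 locus had an SD of 0.62 within the locus (41 loci). Neither figure includes differences between batches of seed. The ratio of 3′ to 5′ signal of the first actin control, a measure of how intact the labelled RNA is, was 4.31 in TSA-treated and 4.66 in untreated seed, against 1.82 in unimbibed seed. For the first ubiquitin control it was 2.71 and 3.17, against 3.87 in unimbibed seed, so the order of the states was not the same for both controls, and the part of RNA quality in the ratios was not tested.

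Of 16314 probe sets measured above the floor on at least 1 of the 2 arrays, 3808 (23.3%) rose and 3759 (23.0%) fell in TSA-treated over unimbibed seed. In untreated imbibed over unimbibed seed 3669 of 16246 rose (22.6%) and 3425 fell (21.1%). The split of calls depends on the scaling: rises were 50.3% of all calls in TSA-treated seed as scaled here, 75.3% with the signals as deposited, 73.1% with the hybridisation controls set equal and 86.7% with the poly-A spike controls set equal. These 3 settings move every TSA ratio above the floor up by 0.74, 0.67 and 1.25 on the log2 scale, so a small negative ratio changes sign under them. At 64-fold or more, 98 probe sets rose and 80 fell in TSA-treated seed, beside 47 and 119 in untreated seed. At 256-fold or more the counts were 7 and 11 in TSA-treated seed and 0 and 35 in untreated seed. Both ratios have the unimbibed array in common, so the values are set side by side without a measure of overlap.

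**Figure D1:**
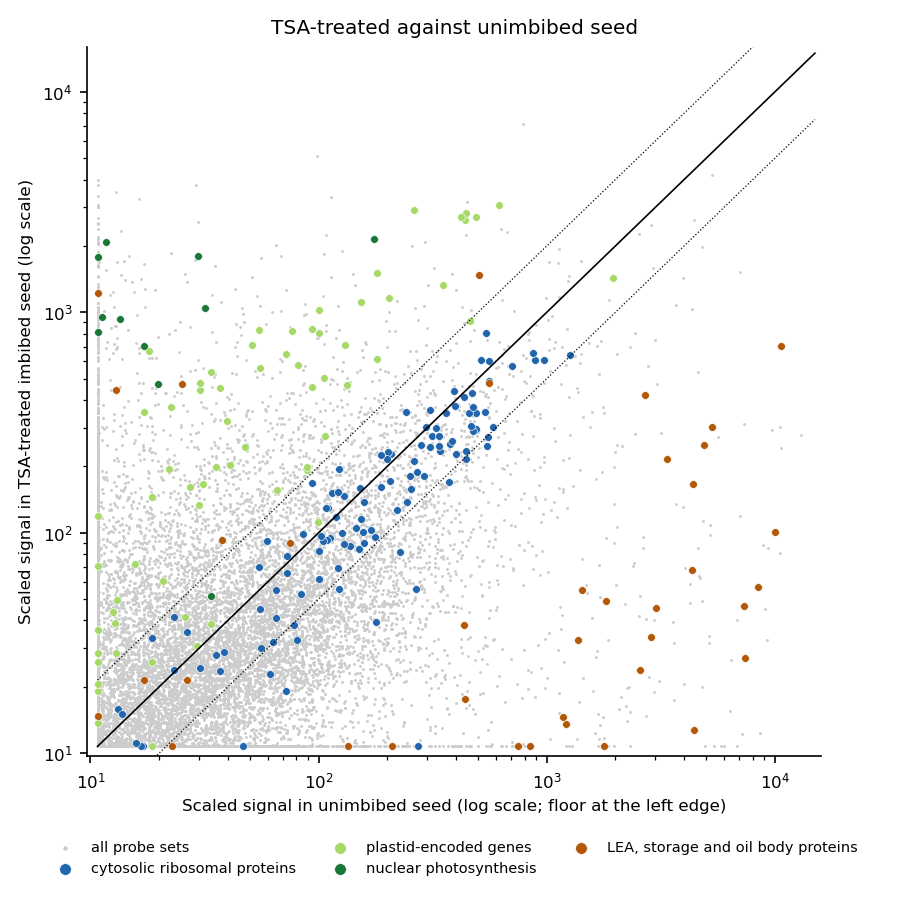
Scaled signal of each probe set in TSA-treated imbibed seed (vertical, log scale) against unimbibed seed (horizontal, log scale), with values under the floor of 10.7 drawn at it. The solid line marks equal signals and the dotted lines 2-fold. Most LEA, storage and oil body points lie far below the line, most photosynthesis and plastid points above it, and cytosolic ribosomal points close to it.

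Members of each gene list were counted per locus. Over all 8976 loci measured in TSA-treated over unimbibed seed, 20.5% rose and 23.4% fell, with a median log2 ratio of -0.12. Over 8953 loci in untreated over unimbibed seed, 20.1% rose and 21.5% fell, with a median of -0.04. Only entries with a probe set of their own, paired by the annotation with that gene alone, could be measured, 386 of 1102. A list therefore stands for its measured members. A locus at the floor in unimbibed seed was measured only in a comparison whose imbibed signal passed the floor. The loci counted can therefore differ between the comparisons. Where a locus has no symbol in the gene table it is given by its identifier, and its place in a list comes from general knowledge of the family.

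The dry-seed protection messages fell in TSA-treated seed. Of 50 LEA and dehydrin entries 34 had a probe set of their own, and 29 loci were measured. With TSA 19 fell and 5 rose, and the median log2 ratio was -4.29. In untreated seed 20 fell and 5 rose, and the median was -6.31. M10, a LEA gene, had a signal of 27.1 in TSA-treated seed and was at the floor in untreated seed, against 7413 in unimbibed seed. The dehydrin AT2G21490 (symbol LEA) had 56.9 in TSA-treated and 19.2 in untreated seed, against 8472 in unimbibed seed. These are drops of 273-fold and 149-fold with TSA, among the deepest measured in this comparison. The listed locus AT2G42560 had 12.8 in TSA-treated seed and was at the floor in untreated seed, against 4425 in unimbibed seed, a fall of 346-fold with TSA.

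The depth of the fall differed among LEA members. The listed locus AT3G15670 had 703 in TSA-treated and 124 in untreated seed, against 10638 in unimbibed seed. It fell 15.1-fold with TSA and 85.5-fold without it. LEA4-5, one of the group 4 LEA genes, had 250.2 in TSA-treated and 51.3 in untreated seed, against 4895 in unimbibed seed. LTI30, a dehydrin also called XERO2, had 422 in TSA-treated and 50.6 in untreated seed, against 2708 in unimbibed seed. For these members the TSA signal lay between the other 2 states, well under the dry-seed level and above the untreated one. AtLEA4-1 had nearly the same signal on both imbibed arrays, 46.7 with TSA and 40.9 without it, against 7318 in unimbibed seed.

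The 5 list members that rose with TSA were named after their values were seen. COR47, a cold-induced dehydrin, had 1227 in TSA-treated and 133 in untreated seed and was at the floor in unimbibed seed, so it was at least 114-fold higher with TSA and at least 12.4-fold higher without it. AT1G54410, the dehydrin HIRD11, had 442 in TSA-treated and 462 in untreated seed, against 12.9 in unimbibed seed. AT2G44060, LEA26, had 475 and 635, against 25.3 in unimbibed seed. The fourth, DI21, a drought-induced gene, had 92.3 with TSA and 335 without it, against 37.8 in unimbibed seed. The listed locus AT3G02480 had 1485 in TSA-treated and 55.4 in untreated seed, against 507 in unimbibed seed, so it rose 2.93-fold with TSA and fell 9.15-fold without it.

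Storage protein messages fell at every measured locus in TSA-treated seed, 5 of 5 (median log2 ratio -6.00), and at 5 of 5 in untreated seed (median -6.12). PAP85, a vicilin-like storage protein, had 101 in TSA-treated and 23.4 in untreated seed, against 10078 in unimbibed seed. The fall was 99.8-fold with TSA and 430-fold without it. The listed locus AT2G28490 had 67.9 in TSA-treated seed and was at the floor in untreated seed, against 4348 in unimbibed seed. The listed locus AT1G03890 was at the floor on both imbibed arrays and had 746 in unimbibed seed. Oil body messages fell at 4 of 4 measured loci in both comparisons, with medians of -5.10 with TSA and -6.34 without it. The listed locus AT3G01570 had 303 in TSA-treated and 31.4 in untreated seed, against 5328 in unimbibed seed. OLEO3, an oleosin, had 38.2 and 23.3, against 433 in unimbibed seed. The other two, AT2G25890 and AT3G18570, fell 66.6-fold and at least 79.1-fold with TSA.

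Only 3 of 16 regulators of seed maturation could be measured. EEL, a bZIP factor of late embryogenesis, had 15.6 in TSA-treated and 13.6 in untreated seed, against 141 in unimbibed seed, a fall of 9.03-fold with TSA. BZIP53, a bZIP factor that activates seed maturation genes, had 178 in TSA-treated and 69.7 in untreated seed, against 111 in unimbibed seed, within 2-fold of the dry level in both. BBM, a factor that can induce embryo formation, was at the floor on both imbibed arrays and had 11.9 in unimbibed seed. The LEC and ABI3 class of regulators is not analysed here.

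Small heat shock proteins, chaperones stored in dry seed, split. Of 9 measured loci 5 fell and 1 rose in TSA-treated seed (median log2 ratio -1.55), beside 6 falling and 1 rising of 8 in untreated seed (median -3.18). The listed locus AT5G54660 was measured only with TSA, at 16.4 and the floor in both other states, so these medians rest on different loci. The listed loci AT1G52560 and AT5G37670 were at the floor on both imbibed arrays, against 423 and 126 in unimbibed seed. AT1G53540 had 12.8 and 14.9, and AT2G29500 had 11.9 and 16.1, in TSA-treated and untreated seed, against 309 and 200.02 in unimbibed seed. The fifth, AT2G19310, had 77.0 and 32.2, against 226 in unimbibed seed. ATHSP22.0, a heat shock protein of the endoplasmic reticulum, had 42.5 in TSA-treated seed and was at the floor in untreated seed, against 71.1 in unimbibed seed. It fell at least 6.62-fold without TSA and stayed within 2-fold with it. The listed locus AT4G21870 went the other way, with 1025 in TSA-treated and 192 in untreated seed and the floor in unimbibed seed, at least 95.5-fold higher with TSA.

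**Figure D2:**
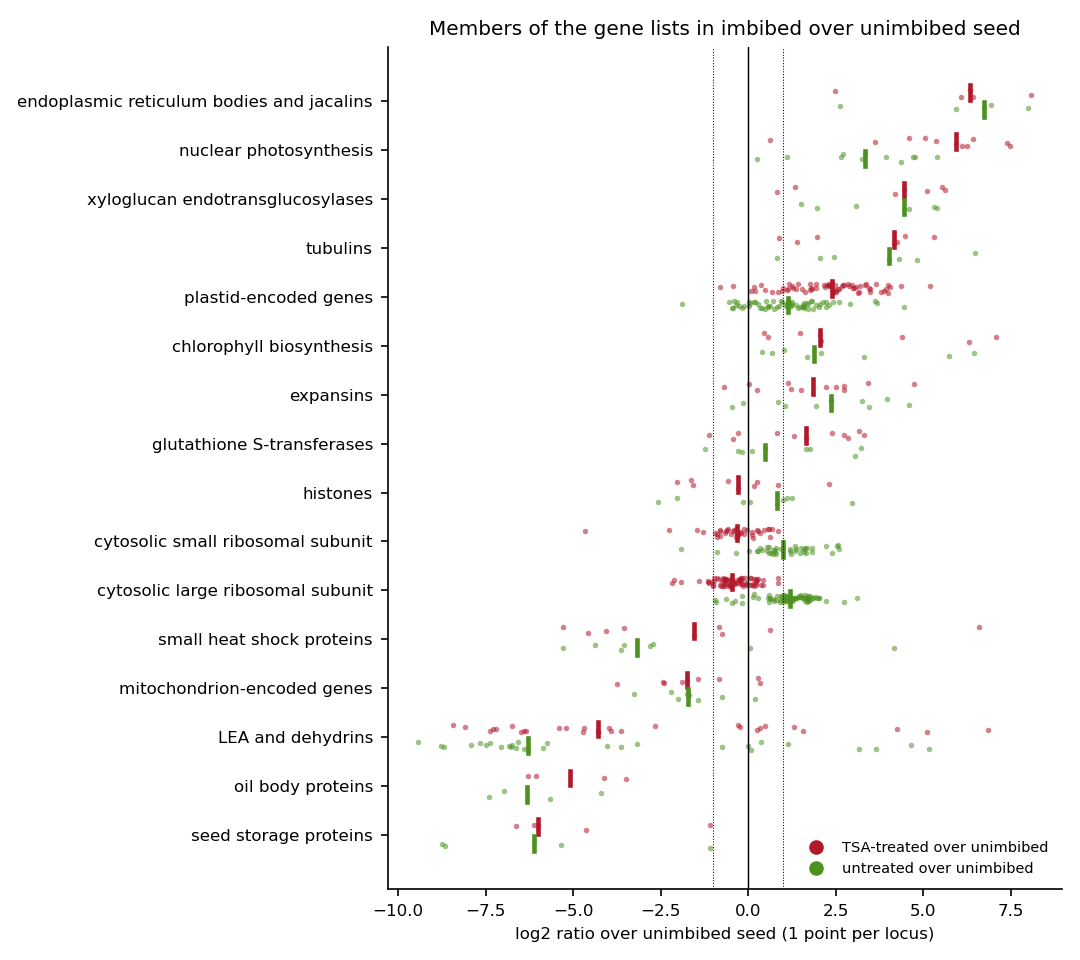
Each point is 1 locus, placed at its log2 ratio over unimbibed seed, for TSA-treated seed (red, upper row of each list) and untreated imbibed seed (green, lower row), with thick bars at the list medians and dotted lines at 2-fold. Storage, oil body and LEA medians lie at -4.29 or below with TSA, and photosynthesis at 5.93. Both ribosomal lists lie just under 0 with TSA and near 1 without it, as scaled here. Their TSA medians are above 0 under the deposited, hybridisation and poly-A scalings, for which untreated medians are not given. Ratios with 1 side at the floor are drawn at their bound.

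Messages for photosynthesis encoded in the nucleus rose in TSA-treated seed at 10 of 11 measured loci (median log2 ratio 5.93). In untreated seed 10 of 11 rose as well (median 3.33). RCA, the activase that keeps Rubisco working, had a signal of 2085 in TSA-treated and 485 in untreated seed, against 11.6 in unimbibed seed. It rose 179-fold with TSA and 41.7-fold without it, and had the second highest ratio among probe sets with 1 gene and a signal over the floor on each of these arrays. LHCB4.1 and LHCB4.2 encode the minor antenna protein CP29 of photosystem II. LHCB4.1 had 2160 in TSA-treated and 378 in untreated seed, against 175 in unimbibed seed. LHCB4.2 had 1795 in TSA-treated and 191 in untreated seed, against 29.5 in unimbibed seed. The signal with TSA was the highest of the 3 states for each of them.

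The other photosynthesis members had the same order of states. PSAE-1 and PSAN encode subunits of photosystem I, PSBW and PSBY small subunits of photosystem II, and ATPC1 the gamma subunit of the chloroplast ATP synthase. PSAE-1 had 1787 in TSA-treated and 288 in untreated seed and PSAN 811 and 102, and both were at the floor in unimbibed seed. PSBW had 1051 and 197, against 31.6 in unimbibed seed, and PSBY had 935 and 355, against 13.5. ATPC1 had 703 and 263, against 17.2 in unimbibed seed. Of the Calvin cycle, PRK, phosphoribulokinase, had 953 and 228, against 11.2 in unimbibed seed, and SBPASE, sedoheptulose-bisphosphatase, had 472 and 199, against 19.7. The member that did not rise was LHCB4.3, with 51.6 in TSA-treated and 39.7 in untreated seed, against 33.6 in unimbibed seed, within 2-fold in both.

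Messages for chlorophyll synthesis rose as well at most measured loci. Of 8 measured loci 6 rose and none fell with TSA, and the median log2 ratio was 2.06, while 6 of 8 rose in untreated seed (median 1.88). PORB, which reduces protochlorophyllide in light, had 843 in TSA-treated and 939 in untreated seed and was at the floor in unimbibed seed, at least 78.5-fold higher with TSA. AT1G74470, geranylgeranyl reductase, which makes the phytol tail, had 1560 and 617, against 11.6 in unimbibed seed, a rise of 134-fold with TSA. CHLM, a methyltransferase of the magnesium branch, had 354 and 165, against 16.8. Of the enzymes on the way to the common tetrapyrrole ring, HEME1 and HEME2 rose 2.76-fold and 4.21-fold with TSA, to 94.1 and 121, against 34.1 and 28.9 in unimbibed seed. GSA1 and HEMB1 stayed within 2-fold with TSA, at 69.7 and 157, against 51.6 and 106 in unimbibed seed.

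Plastid-encoded genes rose at 55 of 66 measured loci in TSA-treated seed, none fell, and the median log2 ratio was 2.39. In untreated seed 36 of 65 rose, 1 fell and the median was 1.12. The gene psaB, for a core protein of photosystem I, had 3061 in TSA-treated and 568 in untreated seed, against 621 in unimbibed seed. It rose 4.93-fold with TSA and stayed within 2-fold without it. Plastid genes were split into classes by symbol after the values of the lists were known. The photosystem I class rose at 5 of 5 loci with TSA (median 3.35) and at 2 of 5 without it (median 0.94). In photosystem II 14 of 15 rose with TSA (median 2.72) and 8 of 14 without it (median 1.29). Of these psbT, which rose, was measured only with TSA, at 36.2 and the floor in both other states. The psbM gene, a small subunit of photosystem II, had 2927 in TSA-treated and 610.2 in untreated seed, against 261 in unimbibed seed. The core antenna gene psbC had 909 with TSA and 124 without it, against 462 in unimbibed seed, so it fell only without TSA.

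The other plastid classes did not all follow. In the cytochrome b6f class 4 of 5 rose with TSA (median 1.76) and 0 of 5 without it (median 0.39), and in the NADH dehydrogenase class 7 of 9 (median 1.92) and 3 of 9 (median 0.56). The ATP synthase class rose at 5 of 5 loci in both comparisons, with medians of 3.07 and 1.93. Its beta subunit gene atpB had 2814 in TSA-treated and 1433 in untreated seed, against 441 in unimbibed seed. The large subunit of Rubisco, rbcL, had 373 and 170.1, against 22.6 in unimbibed seed. Genes for plastid ribosomal proteins rose at 12 of 15 loci with TSA (median 2.55) and 11 of 15 without it (median 2.05), and rpl33 rose 36.7-fold with TSA, to 665, against 18.1 in unimbibed seed. The plastid's own RNA polymerase was the class with the lowest median with TSA, 0.51 with 1 of 4 loci rising, beside 1.02 and 2 of 4 without it. The protease subunit gene clpP had 1429 in TSA-treated and 1340.0 in untreated seed, against 1951 in unimbibed seed, within 2-fold in both.

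**Figure D3:**
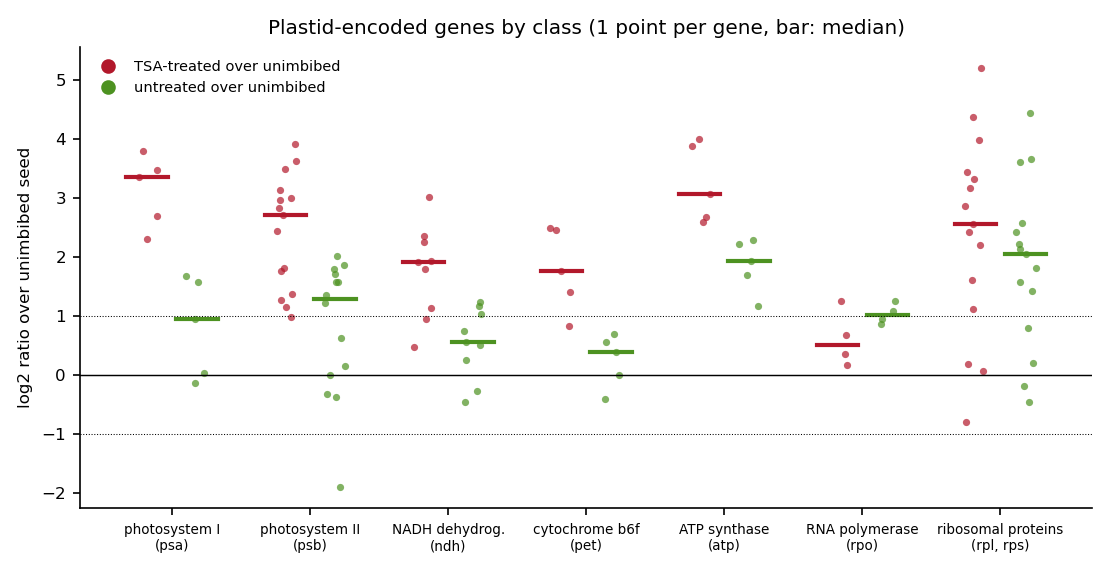
Log2 ratio over unimbibed seed (vertical axis) of plastid-encoded genes grouped by class, for TSA-treated seed (red, left) and untreated imbibed seed (green, right), with bars at the class medians, a solid line at 0 and dotted lines at 2-fold. Photosystem I and cytochrome b6f medians are 3.35 and 1.76 with TSA and under 1 without it, and those of RNA polymerase are 0.51 and 1.02. The classes were chosen after the list values were known. The genes petG and psbT are drawn only for TSA-treated seed, and petN only for untreated seed.

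Of photorespiration only 3 of 12 entries were measured. HPR, the hydroxypyruvate reductase of peroxisomes, had 828 in TSA-treated and 69.0 in untreated seed, against 108 in unimbibed seed. It rose 7.69-fold with TSA and stayed within 2-fold without it. The listed locus AT1G11860 had 497 and 189, against 114 in unimbibed seed, and the listed locus AT1G80380 had 86.3 and 42.8, against 581, a fall of 6.73-fold with TSA. Of the mitochondrion-encoded genes, 6 of 9 measured fell and none rose with TSA (median log2 ratio -1.75), and 6 of 8 fell without it (median -1.73). The TSA counts depend on the setting: 5 fell and 1 rose with the signals as deposited (median -1.28), 3 fell and 1 rose with the poly-A controls set equal (median -0.83), and 3 of 8 fell with the floor at the 60th percentile (median -0.75). The cox2 gene, a subunit of cytochrome c oxidase, had 12.5 in TSA-treated and 17.55 in untreated seed, against 169 in unimbibed seed.

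Genes of cell expansion rose in TSA-treated seed. Expansins, which loosen the cell wall, rose at 9 of 12 measured loci and none fell (median log2 ratio 1.85), beside 8 of 11 in untreated seed (median 2.37). EXPB2 was measured only with TSA, at 10.8, just over the floor, so these medians rest on different loci. EXPA8 had 286 in TSA-treated and 55.6 in untreated seed and was at the floor in unimbibed seed, at least 26.7-fold higher with TSA. EXPA9 had 143 and 324, against 13.4 in unimbibed seed, so the higher imbibed signal was the untreated one. EXPB1 had 83.5 in TSA-treated seed and was at the floor in untreated seed, against 14.8 in unimbibed seed, and rose only with TSA. EXPA7 and EXPA18, expansins of root hairs, had 30.4 and 70.9 in TSA-treated seed and 101 and 167 in untreated seed, and both were at the floor in unimbibed seed.

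Xyloglucan endotransglucosylases (XTH), which cut and rejoin wall xyloglucan, rose at 6 of 7 measured loci with TSA and at 7 of 7 without it, with medians of 4.45 and 4.45. XTH19 had 491 in TSA-treated and 448 in untreated seed, and XTH16 had 525 and 235, and each was at the floor in unimbibed seed. XTH26 had 18.8 with TSA and 89.9 without it and was at the floor in unimbibed seed, so its TSA ratio of 1.75-fold is only a lower bound. The count depends on the floor: 7 of 8 rose with TSA when a floor at the 25th percentile was used, and 8 of 9 without a floor. Tubulins, the subunits of microtubules, rose at 6 of 7 loci in both comparisons, with medians of 4.16 with TSA and 4.01 without it. TUA6, an alpha tubulin, had 773 in TSA-treated and 1763 in untreated seed, against 19.7 in unimbibed seed. TUA1 stayed within 2-fold, at 64.3 and 61.4, against 34.9 in unimbibed seed. ACT11, an actin, had 107 and 57.9 and was at the floor in unimbibed seed.

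Genes listed for endoplasmic reticulum bodies and jacalins rose at 5 of 5 measured loci in both comparisons, with medians of 6.32 with TSA and 6.73 without it. The list has 14 entries. These bodies are stores of a beta-glucosidase found in Brassicaceae seedlings. PYK10, the beta-glucosidase itself, had the highest ratio with TSA among probe sets with 1 gene and a signal over the floor on each of these arrays, 271-fold. Its signal was 3501 in TSA-treated and 3296 in untreated seed, against 12.9 in unimbibed seed. The jacalin-related lectins JAL33 and JAL34 had 1413 and 1239 in TSA-treated seed and 1020.1 and 1889.6 in untreated seed, against 16.7 and 15.5 in unimbibed seed. NAI2, needed to form the bodies, had 715 and 1136 with the floor in unimbibed seed, and NAI1, their transcription factor, had 59.1 and 65.2 and was also at the floor there.

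Messages for cytosolic ribosomal proteins were not called higher in TSA-treated seed as scaled here, while under the poly-A scaling 30 large and 14 small subunit loci were. Of 116 measured loci for both subunits 0 rose, 14 fell and 102 stayed within 2-fold, with a median log2 ratio of -0.37. The medians of each subunit turn positive under some of the other scalings given below. In untreated seed 71 of 118 rose, 1 fell and the median was 1.18. In the small subunit 0 of 41 rose and 4 fell with TSA (median -0.32), beside 20 of 41 rising without it (median 0.998). In the large subunit 0 of 75 rose and 10 fell with TSA (median -0.47), beside 51 of 77 rising without it (median 1.20). The sign of the TSA medians depends on scaling, given here for the small and the large subunit. With the signals as deposited they were 0.43 and 0.26, and with the hybridisation controls set equal 0.36 and 0.20. With the poly-A controls set equal they were 0.90 and 0.78. They stayed negative under 75th percentile scaling (-0.32 and -0.47) and quantile normalisation (-0.23 and -0.42), with 0 rising in each. The untreated medians of 0.998 and 1.20 are as scaled here, so they are not to be set beside these values. In the deposited signals the poly-A controls had mean log2 ratios of -0.51 in TSA-treated and -0.97 in untreated over unimbibed seed. Setting them equal therefore raises the untreated ratios as well, and by more.

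Most of the ribosomal loci named had their highest signal in untreated seed. AT5G20290, listed in the small subunit, had 655 in TSA-treated and 2022 in untreated seed, against 868 in unimbibed seed. AT5G15200 had 574 and 1617, against 707 in unimbibed seed. AT3G09200, listed in the large subunit, had 642 and 2342, against 1263 in unimbibed seed, and AT2G34480 had 608 and 2009, against 973. For these loci the untreated signal was the highest of the 3 and the TSA signal, as scaled here, the lowest. The order differed at AT2G41840, listed in the small subunit, with 806 in TSA-treated and 1709 in untreated seed, against 539 in unimbibed seed. Members of both lists lay on either side of their dry signal with TSA. AT5G02870 had 303 and 1001, against 295 in unimbibed seed, so the TSA and dry signals were nearly equal. AT5G39850 had the largest drop, at least 25.4-fold, with the floor in TSA-treated seed and 72.1 in untreated seed, against 273 in unimbibed seed.

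Of the genes listed for the nucleolus and ribosome assembly 3 of 9 were measured, and 2 fell and none rose with TSA (median -1.63), beside 1 rising in untreated seed (median -0.03). AT5G14520, the pescadillo homologue PES, had 31.0 in TSA-treated and 142 in untreated seed, against 253 in unimbibed seed, a fall of 8.17-fold with TSA. The listed locus AT4G12600 had 37.6 and 303, against 117 in unimbibed seed, so it fell 3.10-fold with TSA and rose 2.59-fold without it. Among genes lowered at least 4-fold with TSA and within 2-fold without it, PRH75, an RNA helicase, had 46.6 and 174, against 313 in unimbibed seed. PDF1A, a peptide deformylase of organelles, had 11.3 and 43.9, against 58.5 in unimbibed seed.

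Histones are the proteins that deacetylases act on. Of 31 histone entries 12 had a probe set of their own, and 9 loci were measured. The measured loci with a symbol were HTB genes, which encode histone H2B, and HIS1-3. Histone classes without a measured member are not covered. With TSA 1 of 9 rose and 3 fell, beside 20.5% and 23.4% over all measured loci. The median log2 ratio was -0.29. It turned positive with the signals as deposited (0.30), the hybridisation controls set equal (0.24) and the poly-A controls set equal (0.81). In untreated seed 3 rose, 2 fell and the median was 0.83, as scaled here. HTB1, a histone H2B, had 50.6 in TSA-treated and 106 in untreated seed, against 45.0 in unimbibed seed. The listed locus AT2G30620 rose in both, with 162 and 259, against 33.0 in unimbibed seed. HIS1-3, a linker histone induced by drought, had 37.9 and 19.8, against 118 in unimbibed seed. Of the deacetylases themselves only HDA15 was measured, with 23.2 in TSA-treated and 28.9 in untreated seed, against 36.1 in unimbibed seed.

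**Figure D4:**
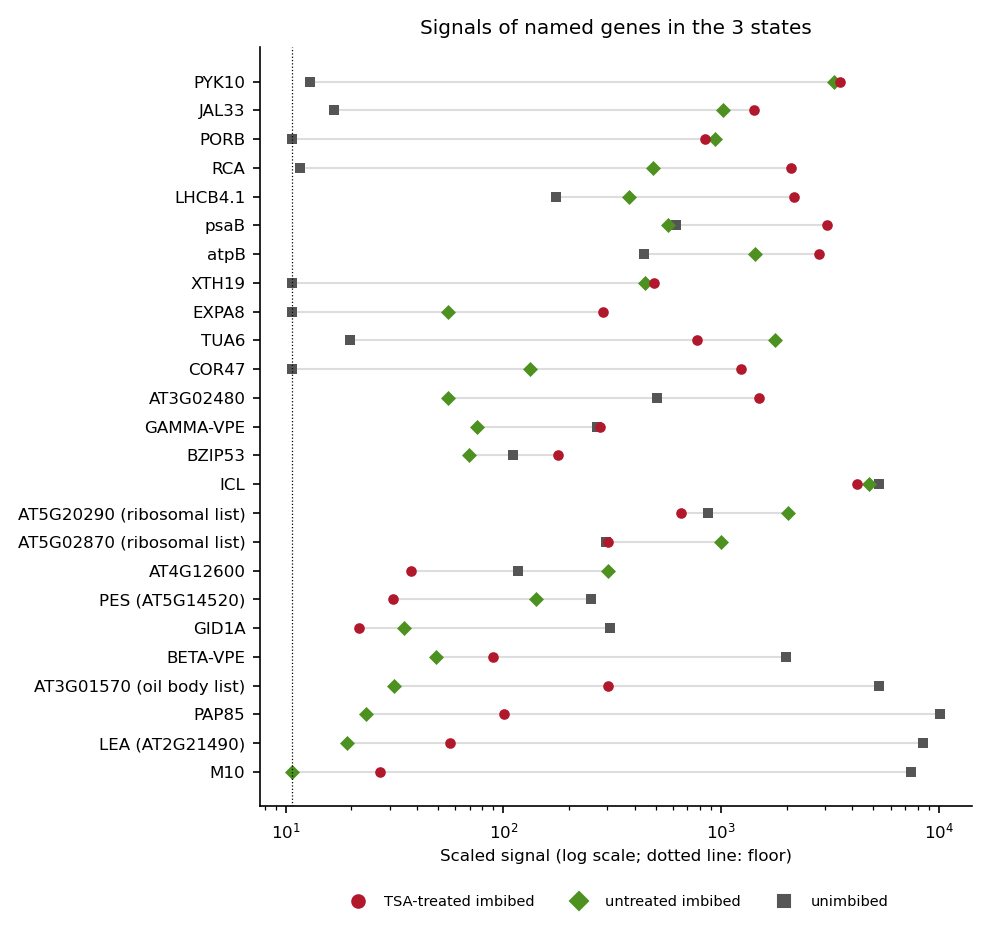
Scaled signals (horizontal, log scale, dotted line at the floor of 10.7) of named genes in TSA-treated (circles), untreated imbibed (diamonds) and unimbibed seed (squares). RCA and psaB have their highest signal with TSA, AT5G20290 and TUA6 without it, and PAP85 and M10 in unimbibed seed.

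Reserve use was measured at few loci. Of 4 genes for lipid breakdown and gluconeogenesis 2 fell and none rose in both comparisons, and no ratio with TSA was above 0 as scaled here (median -0.84, and -1.08 without TSA). ICL, isocitrate lyase of the glyoxylate cycle, stayed within 2-fold of unimbibed seed, with 4213 in TSA-treated and 4792 in untreated seed, against 5331 in unimbibed seed. PPDK, pyruvate orthophosphate dikinase, had 218 and 175, against 292. SDP1, a lipase of oil bodies, had 38.1 and 35.4, against 197 in unimbibed seed, and AIM1, a multifunctional protein of beta-oxidation, had 134 and 120, against 321. The vacuolar and storage proteases were mixed, with 2 of 7 rising and 2 falling with TSA (median log2 ratio 0.05) and 1 rising and 3 falling without it (median -0.79). The TSA values depend on the scaling: 3 of 6 rose and 1 fell with the signals as deposited (median 1.04) and with the hybridisation controls set equal (median 0.97), and 4 rose and 1 fell with the poly-A controls set equal (median 1.54). BETA-VPE, the vacuolar processing enzyme of seeds, had 89.6 and 48.9, against 1984 in unimbibed seed. GAMMA-VPE, the form of vegetative tissue, had 278 in TSA-treated and 75.4 in untreated seed, against 268 in unimbibed seed, so it fell only without TSA. The listed locus AT4G01610 had 1263 and 1170.2, against 72.3 in unimbibed seed.

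Among hormone genes the receptors of gibberellin, which promotes germination, did not move together. The gibberellin receptor gene GID1A had 21.8 in TSA-treated and 34.8 in untreated seed, against 307 in unimbibed seed, and GID1C had 13.9 and 13.6, against 46.7. GID1B had 34.0 and 27.9 and was at the floor in unimbibed seed. SPT, a bHLH factor of germination, had 65.9 and 49.9, against 17.39 in unimbibed seed, and SLY1, the F-box protein that marks DELLA repressors, stayed within 2-fold. With TSA 2 of 5 listed gibberellin genes rose and 2 fell, as without it. In the auxin list 1 of 4 measured rose and 1 fell with TSA. IAA18, an Aux/IAA repressor, had 66.5 and 41.9, against 12.8 in unimbibed seed, and IAA30 was at the floor on both imbibed arrays and had 26.2 in unimbibed seed. GI, a clock gene, had 33.0 and 49.5, against 110.2 in unimbibed seed.

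Genes of detoxification and of flavonoid synthesis were measured at few loci, and some members only because they passed the floor with TSA. Glutathione S-transferases rose at 7 of 11 measured loci and 1 fell with TSA (median 1.65), beside 4 rising and 1 falling of 9 without it (median 0.47). GSTU25 had 106 in TSA-treated and 14.9 in untreated seed and was at the floor in unimbibed seed. GSTU27 had 139 and 128, against 15.4 in unimbibed seed. Of the flavonoid genes 3 of 5 rose and 1 fell with TSA (median 1.24), beside 1 of 3 rising without it (median 0.36). At 4-fold 0 rose with TSA and 1 without it, and with the floor at the 60th percentile 1 of 4 rose and 1 fell with TSA (median 0.27). DFR, dihydroflavonol reductase of anthocyanin synthesis, had 59.8 and 18.3, against 16.7 in unimbibed seed, and UGT78D2, a flavonoid glucosyltransferase, had 37.9 and 100.3, against 77.9 in unimbibed seed.

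Genes chosen for a change in TSA-treated seed and none of 2-fold in untreated seed describe what the 2 imbibed samples do not share. Among those most raised, ECS1, a gene of the cell wall, had 304 in TSA-treated seed and was at the floor on both other arrays, at least 28.3-fold higher. AT2G37870 had 512 in TSA-treated and 11.7 in untreated seed, with the floor in unimbibed seed, and AT5G04120 had 441 with TSA and the floor in both other states. The 8 most raised stood at 276 to 512 with TSA. In the opposite choice, genes raised at least 4-fold without TSA and within 2-fold with it, 5 of the 8 most raised were at the floor in unimbibed seed, so their TSA ratio is only a bound. These include SAG29, the sugar transporter SWEET15, with 15.7 in TSA-treated and 70.0 in untreated seed, and AT3G10040, the hypoxia response factor HRA1, with 19.4 and 73.2. Of the other 3, AT5G60670, listed in the large ribosomal subunit, had 70.0 and 365, against 54.7 in unimbibed seed. A further choice was of genes lowered at least 4-fold without TSA and within 2-fold with it. Of these PIFI, a chloroplast protein of electron flow, had 60.7 in TSA-treated and 19.6 in untreated seed, against 117 in unimbibed seed. It fell 5.96-fold without TSA and was 1.92-fold lower with it, just short of the 2-fold cut.

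Outside the lists, genes with a high signal in TSA-treated seed and a signal at the floor in unimbibed seed included the loci AT1G09310, with 2994 in TSA-treated and 1972 in untreated seed, and AT3G16370, with 1703 and 1544. The rise with TSA was at least 279-fold for the first and 159-fold for the second. ZW9 had 1232 and 553, against 12.5 in unimbibed seed, and MSRB9, a methionine sulfoxide reductase, had 845 and 709, against 12.4. In the other direction PDF2.1, a defensin, had 14.7 in TSA-treated seed and was at the floor in untreated seed, against 2721 in unimbibed seed. The locus AT1G14950 had 20.01 in TSA-treated seed and the floor in untreated seed, against 4779 in unimbibed seed, a fall of 239-fold with TSA. The genes of this paragraph lay on the same side of unimbibed seed on both imbibed arrays. They were picked for a TSA signal far from the unimbibed one, and both ratios share the unimbibed array. The like direction therefore follows largely from the choice and tests nothing. Larger falls exist outside the named genes, since 5 probe sets fell 512-fold or more with TSA.

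The labelled states were set beside tissue markers. These lists were chosen with earlier results of these data known, so they are no independent check of the labels. Most measured members of the dry-seed lists were higher in unimbibed than in imbibed seed, as given above, though COR47 was at the floor in unimbibed seed. Most of the green-tissue list was higher on both imbibed arrays. The root-hair genes EXPA7 and EXPA18 were above the floor only on the imbibed arrays. The seed coat gene BAN and the shoot meristem gene CLV3 were at the floor in all 3 states, and no listed endosperm or root patterning gene had a measured probe set, so those tissues could not be checked. Fewer cells of a type and less RNA per cell cannot be told apart in whole seed. Of 5 genes listed as stable references, 4 stayed within 2-fold and 1 fell with TSA, and the median log2 ratio was -0.22 here and 0.52, 0.45 and 1.03 under the deposited, hybridisation and poly-A scalings. PEX4 had 78.3 in TSA-treated and 50.4 in untreated seed, against 67.2 in unimbibed seed.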

How the data were processed

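The authors deposited linear intensity values, 1 signal per probe set, from MAS5, per the submitters' processing notes. The version and scaling target of MAS5 are not stated there. Each of the 3 columns matched a sample by name, with 0 left over. Of 22810 probe sets, 64 controls were left out. Each array was scaled to a common 2% trimmed mean (factors 0.859, 0.877 and 1.44 for TSA-treated, untreated and unimbibed seed), signals under 10.7, the 40th percentile over all arrays together, were raised to it, and log2 ratios were taken with python 3.11.15, numpy 2.4.6 and pandas 2.3.3. A probe set was called at 2-fold. The steps were tested on simulated data. The number of arrays limits the precision: with 1 array per state there is no test.

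Names came from the platform annotation, updated through the RefSeq gene table of TAIR10.1: 13513 probe sets had 1 gene, 503 several and 8730 none, and 13436 of the 13513 matched, while 77 kept an older name. A locus takes the mean log2 ratio over its probe sets. The 44 lists and their 1102 entries were chosen with earlier results of these data known. Of these lists 13 had no measured member, most because the annotation paired no probe set with 1 of their genes alone. The 8730 probe sets without a gene name may hold such genes, so an empty list does not mean that the array lacks them. By rule the text could name the 12 highest and 12 lowest ratios with both signals over the floor, the brightest with the other side at the floor, in each list all of up to 6 measured members or otherwise the brightest, most changed and least changed, and the most changed genes called in only one imbibed state; other list members were named after their values were seen. Alternatives were other scalings, floors, the fold and the choice of probe set. Promoter motifs were planned and not run, since no promoter sequences were used here.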

Additional observations from a re-analysis of the deposited data

Results flagged for a closer look

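The array carries control probe sets for Arabidopsis GAPDH, the glycolytic enzyme glyceraldehyde-3-phosphate dehydrogenase, which enter none of the comparisons. They are given because a signal rose in data outside the main measurement. In TSA-treated over unimbibed seed their log2 ratios were 3.07, 2.87 and 3.54 for the 3′, 5′ and middle probe sets of the first set, and 3.91 and 3.73 for the 3′ and 5′ probe sets of the second. The middle probe set had 1184 in TSA-treated and 2095 in untreated seed, against 102 in unimbibed seed. In untreated over unimbibed seed the first 3 log2 ratios were 3.68, 4.25 and 4.36.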

How the results depend on the processing

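Every value rests on 1 array per state, so no replicate could be left out. No paired analysis was possible because each state has 1 array and no test was made. Ratios, medians and counts depend on the scaling, and low signals on the floor. Values under other settings are given for TSA-treated over unimbibed seed only. Scaling on the 75th percentile moved none of 186 named genes by more than the spread between probe sets of a locus, and taking the brightest probe set of each locus moved none of 19 list medians so far. Quantile normalisation moved the LEA median to -3.55 and the storage median to -5.16.

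With signals as deposited 1864 probe sets fell, and medians were -3.55 (LEA), 0.26 and 0.43 (large and small ribosomal subunit), 7.06 (endoplasmic reticulum bodies and jacalins), 3.05 (plastid), -5.26 (storage) and -0.81 (small heat shock). With hybridisation controls set equal 1998 fell, and the medians were -3.62, 0.20, 0.36, 6.99, 2.98, -5.33 and -0.88 in that order. With poly-A controls set equal 7027 rose and 1075 fell, and they were -3.04, 0.78, 0.90, 7.17, 3.55, -4.75 and -0.31, with 3.02 for chlorophyll synthesis, 2.49 for expansins, 0.81 for histones and 6.56 for nuclear photosynthesis; UGT78D2 (0.21), AT4G34270 (0.23) and APA1 (0.022) changed sign there from -1.04, -1.02 and -1.23. With the floor at the 25th percentile the medians of expansins, tubulins and XTH genes were 2.56, 5.29 and 5.44. With the floor at the 60th percentile those of nuclear photosynthesis, storage, small heat shock, tubulins and XTH genes were 5.16, -5.04, -2.48, 3.08 and 3.70. Without a floor 6721 rose and 6552 fell, and the medians of chlorophyll synthesis, tubulins and XTH genes were 3.23, 5.29 and 7.35. At 4-fold 1806 rose and 1342 fell. The deposited, hybridisation and poly-A settings add a constant to every ratio above the floor; the cause of the other differences was not tested.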
